A study of Homo sapiens with 24 samples.

Results

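UBE2N, also known as UBC13, is the conjugating enzyme (E2) that builds lysine-63 ubiquitin chains, and it was described here with 8 genes that act with it. The 9 genes, out of 37416 in the files, were found by matching Ensembl identifiers to symbols, and all 9 passed the filter on low counts. UBE2N was chosen by its lower counts under an ADAR1 hairpin in earlier results of these same data, and the other 8 genes were added for their place in the pathway, with those results known. The changes of UBE2N under the hairpin are therefore given as a description without a test, and those of the other 8 as values with their error and a count of calls from which nothing is read.

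The libraries came from 4 established human breast cancer lines, BT549, HCC1806, MDAMB231 and MDAMB468, which the series calls triple-negative. Every library came from cells infected with a lentivirus for 24 h in protamine sulfate (10 µg/ml) and kept in puromycin (2 µg/ml) for 72 h. The virus carried a hairpin against ADAR1 (shADAR1), the RNA-editing enzyme encoded by ADAR, or a control hairpin with no target (shNT). Each line and arm has 3 libraries, whose titles call them biological replicates. The hairpin sequence is not given in the sources used here, each line is a single established culture, and no uninfected group was analysed here.

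Ubiquitin chains linked through lysine-63 mostly serve as scaffolds and do not send proteins to the proteasome. UBE2N makes them as a dimer with one of the inactive E2 variants UBE2V1 and UBE2V2. Ligases such as TRAF6 direct the chains to signalling after Toll-like and interleukin-1 receptor activation, and RNF8 and RNF168 direct ubiquitin to chromatin at DNA breaks. TAB2 binds lysine-63 chains and brings in the kinase MAP3K7 (TAK1), which activates IKK and NF-kB, and CYLD is a deubiquitinase that removes such chains.

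Total counts ran from 10370645 (MDAMB231 shNT replicate 1) to 97218217 per library, with a median of 51996976. ADAR, the check of the labels, stood at 26.1%, 33.1%, 21.8% and 37.1% of its control mean in BT549, HCC1806, MDAMB231 and MDAMB468, and its arms did not overlap in any line. EPCAM and KRT5 were high in HCC1806 (299.8 and 1236 CPM under shNT) and MDAMB468 (253.1 and 1203), and VIM was high in BT549 (2309) and MDAMB231 (4305). The division was not complete, since MDAMB231 also had 467.0 CPM of KRT8 and 223.1 CPM of KRT18 and only 0.254 CPM of the mesenchymal gene CDH2. In BT549 all 6 epithelial markers averaged under 1 CPM. The receptor genes ESR1 and PGR stayed under 1 CPM in BT549 and MDAMB231, whereas ESR1 averaged 19.1 CPM in HCC1806 and 6.85 CPM in MDAMB468 under shNT. Of the leukocyte genes CD3E averaged at most 0.0401 CPM and PTPRC at most 0.594 CPM in any group, while CD14 reached 3.86 CPM in MDAMB468. The endothelial genes PECAM1 and KDR reached 4.51 and 5.85 CPM in MDAMB231.

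The files place UBE2N (ENSG00000177889) on chromosome 12 from 93405673 to 93442262, minus strand, on coordinates that match GENCODE 29 on GRCh38. Of its 6269 exon bases, 2474 (39.5%) are also exon bases of NUDT4 on the opposite strand. Whether counting used strand is not given in the sources used here, so reads in those bases cannot be told apart. UBE2NL, a near-identical copy of UBE2N, was not found among the genes of the files, and how reads that match several places were counted is not given, so part of the UBE2N count is uncertain. A 7-base sequence, ATCTTCA, which earlier results of these data had picked out, was searched on the sense strand of the longest annotated 3′ UTR per gene. The copies in UBE2N, RNF168, CYLD and ADAR are shown because they are the only ones among the 9 genes and ADAR, each with 11 bases on either side, 5′ to 3′ on the transcript strand, from GENCODE 29 on GRCh38, with the 7 bases in capitals.
UBE2N, chr12:93409906-93409934, minus strand: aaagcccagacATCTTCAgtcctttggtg
RNF168 copy 1, chr3:196471735-196471763, minus strand: cctatcatggaATCTTCAtccatgtgtca
RNF168 copy 2, chr3:196471524-196471552, minus strand: aactccaggaaATCTTCAagtgccattgt
CYLD copy 1, chr16:50798510-50798538, plus strand: gggaattgagcATCTTCAgatgttggtat
CYLD copy 2, chr16:50799721-50799749, plus strand: ttgaacatggcATCTTCAtagattcagga
ADAR, chr1:154582413-154582441, minus strand: tgcccactgttATCTTCActttctttgtc

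The copy in UBE2N begins at base 116 of a UTR of 4349 bases. UBE2V1, UBE2V2, TRAF6, RNF8, MAP3K7 and TAB2 hold 0 copies in UTRs of 1644 to 3980 bases. Among 18862 genes with an annotated 3′ UTR, 2557 (13.6%) hold at least 1 copy, and among the 1732 with a UTR at least as long as that of UBE2N the share is 46.6%. These copies are matches of letters, and nothing was measured at them.

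UBE2N was lower in every shADAR1 library than in every shNT library of its line. Levels in BT549, as library-scaled read counts (TMM-scaled CPM), were 44.9, 52.7 and 45.0 under shNT and 17.3, 19.4 and 18.3 under shADAR1, for replicates 1, 2 and 3. MDAMB231 had the highest control level of the lines, with 81.5, 102.2 and 86.5 CPM, against 24.0, 36.1 and 27.4 under shADAR1. The MDAMB468 libraries gave 40.2, 37.9 and 37.3 CPM against 13.6, 19.9 and 18.3. HCC1806 was the line with the smallest difference: its shADAR1 libraries, at 29.8, 36.1 and 28.8 CPM, lay below shNT libraries at 59.4, 53.0 and 44.3. In order of their means the 4 shNT groups came first and the 4 shADAR1 groups last, so that the highest shADAR1 group (HCC1806, 31.6 ± 3.94 CPM, SD, n = 3) lay below the lowest shNT group (MDAMB468, 38.5 ± 1.55 CPM). Ranges overlapped between HCC1806 and BT549 under shNT, between HCC1806 and MDAMB231 under shADAR1, and between BT549 and MDAMB468 under shADAR1.

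Under shADAR1 UBE2N kept 32.4% of its control mean in MDAMB231, 38.5% in BT549, 45.0% in MDAMB468 and 60.4% in HCC1806. On the log2 scale this is a change of -1.62 (SE 0.152) for MDAMB231, -1.38 (SE 0.151) for BT549, -1.15 (SE 0.152) for MDAMB468 and -0.73 (SE 0.149) for HCC1806, with a mean over lines of -1.22 (SE 0.0754). In bulk RNA, less transcript per cell and fewer cells that hold it cannot be told apart. NUDT4, the gene whose exons overlap those of UBE2N, had log2 fold changes between -0.12 and 0.11 in the lines. In BT549 NUDT4 had 35.2, 34.7 and 36.8 CPM under shNT and 36.8, 38.9 and 39.3 under shADAR1, so it did not move with UBE2N there. In MDAMB231, NUDT4 ranged from 72.1 to 88.1 CPM under shNT and from 59.9 to 87.2 under shADAR1, and the arms overlapped.

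**Figure D1:**
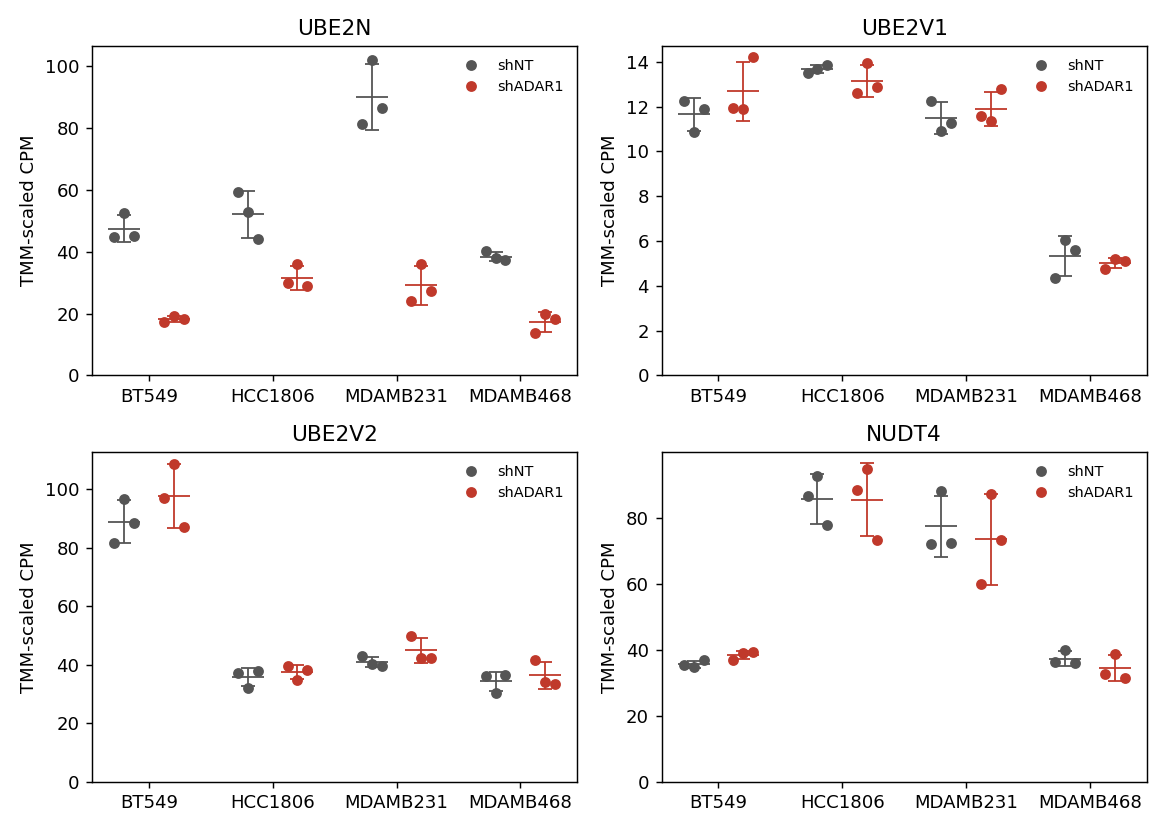
TMM-scaled CPM (vertical axes, from 0) of UBE2N, its partners UBE2V1 and UBE2V2, and the overlapping gene NUDT4 in each of 24 libraries; points are libraries, horizontal ticks and bars are mean and SD (n = 3), grey shNT and red shADAR1. UBE2N is lower in all shADAR1 libraries of each line, from 52.2 to 31.6 CPM on average in HCC1806 and from 90.1 to 29.2 CPM in MDAMB231, while the arms of UBE2V1 and UBE2V2 overlap in every line.

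The partners UBE2V1 and UBE2V2 showed no such separation. UBE2V1 (ENSG00000244687, chromosome 20, 50081124 to 50115959, minus strand) forms with UBE2N the dimer best known from NF-kB signalling. Its group means in HCC1806 were 13.7 ± 0.182 CPM under shNT and 13.2 ± 0.711 CPM under shADAR1 (SD, n = 3), and its log2 fold changes ran from -0.09 to 0.12 over the lines. The arms overlapped in all 4 lines. UBE2V2 (ENSG00000169139, chromosome 8, plus strand), the partner best known from DNA damage tolerance, had log2 fold changes of 0.13, 0.07, 0.14 and 0.08 in BT549, HCC1806, MDAMB231 and MDAMB468, with an SE of 0.110 to 0.112. All 4 were positive, yet the arms overlapped in each line, as in BT549 with 81.8, 96.6 and 88.4 CPM against 97.1, 108.8 and 87.0. Of the exon bases of UBE2V1, 42.9% also belong to the read-through gene PEDS1-UBE2V1, which had 0 counts in all 24 libraries, so values for UBE2V1 per length are uncertain.

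The balance of the E2 and its partners was read from the deposited RPKM (read counts scaled to library total and gene length), since CPM does not compare genes of different length. Under shNT the ratio of UBE2N to the sum of UBE2V1 and UBE2V2 was 1.68 ± 0.257 in MDAMB231, 1.01 ± 0.170 in HCC1806, 0.976 ± 0.0735 in MDAMB468 and 0.477 ± 0.0225 in BT549 (SD, n = 3). BT549 thus had the lowest ratio of the lines. Other genes share 39.5% of the exon bases of UBE2N and 42.9% of those of UBE2V1, so on which side of 1 a ratio lies is uncertain. Under shADAR1 the ratio was 0.507 ± 0.138, 0.601 ± 0.0906, 0.429 ± 0.115 and 0.168 ± 0.0110 in the same order. The highest shADAR1 library lay below the lowest shNT library in each line, for instance 0.656 against 1.44 in MDAMB231. This ratio holds the UBE2N values that chose the gene and is a description. UBE2V2 made up most of the partner signal per length, from 65.5% ± 2.04 in HCC1806 to 84.7% ± 1.86 in BT549 under shNT, and 67.4% ± 2.64 and 84.7% ± 2.73 under shADAR1.

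**Figure D2:**
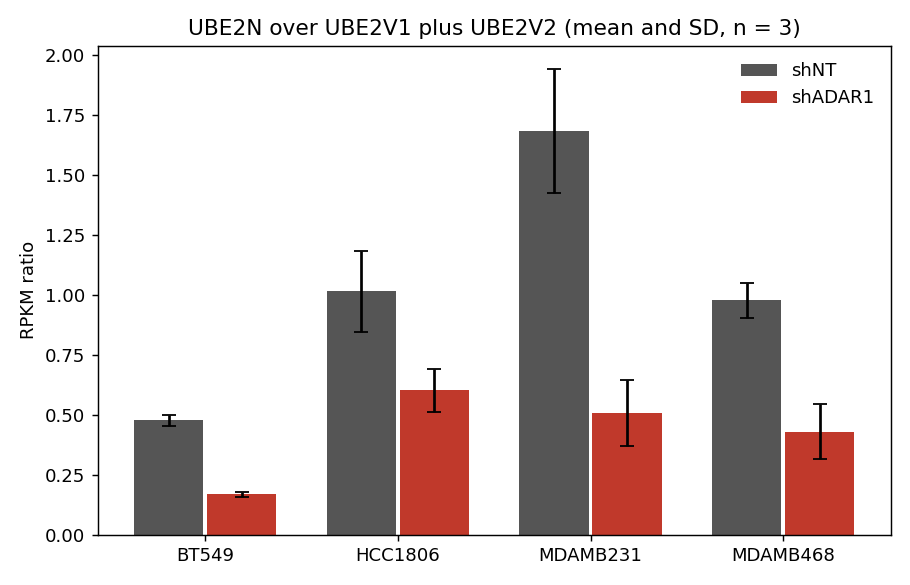
Ratio of UBE2N RPKM to the summed RPKM of UBE2V1 and UBE2V2 (vertical axis, from 0) in each line and arm; bars are means and black lines SD over 3 libraries. MDAMB231 goes from 1.68 to 0.507 and HCC1806 from 1.01 to 0.601, and BT549 has the lowest control ratio, 0.477.

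Among the ligases, RNF168 stood lower under shADAR1 and TRAF6 and RNF8 did not. RNF168 (ENSG00000163961, chromosome 3, 196468783 to 196503768, minus strand) ubiquitinates H2A-type histones beside DNA breaks. In MDAMB231 it had 102.0, 105.6 and 98.5 CPM under shNT and 77.7, 84.1 and 87.5 under shADAR1, a log2 fold change of -0.30 (SE 0.0942). In BT549 it had 79.4, 77.1 and 72.8 CPM against 64.2, 62.7 and 68.9, or -0.23 (SE 0.0936). The arms were apart in those lines, and they overlapped in HCC1806 (-0.12, SE 0.0934) and MDAMB468 (-0.14, SE 0.0939). The mean over lines was -0.20 (SE 0.0469), or 87.4% of control, and between -0.22 and -0.17 when any of the 24 libraries was left out.

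RNF8 (ENSG00000112130, chromosome 6, 37353972 to 37394738, plus strand), the ligase that acts before RNF168 at breaks, had overlapping arms in all 4 lines. Its log2 fold changes ran from -0.07 in MDAMB468 to 0.15 in BT549, with an SE of 0.0953 to 0.0956. TRAF6 (ENSG00000175104, chromosome 11, 36487027 to 36510272, minus strand) had 15.4, 15.6 and 16.5 CPM under shNT and 17.5, 17.7 and 17.0 under shADAR1 in BT549. In MDAMB231 it had 16.6, 21.2 and 21.9 CPM against 21.9, 22.6 and 22.3. The shADAR1 libraries lay above the shNT libraries in both lines, but the log2 fold changes, 0.14 (SE 0.151) and 0.15 (SE 0.154), did not exceed their SE. HCC1806 (0.09, SE 0.149) and MDAMB468 (0.00, SE 0.149) had overlapping arms. In HCC1806 the replicates of TRAF6 were far apart in the same way in both arms: 49.3, 66.5 and 40.9 CPM under shNT and 58.0, 66.3 and 42.4 under shADAR1.

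Downstream of the chains, TAB2 was lower under shADAR1 in MDAMB231 above all, while the arms of the kinase MAP3K7 overlapped in every line. TAB2 (ENSG00000055208, chromosome 6, 149218641 to 149411613, plus strand) had 110.1, 101.3 and 113.0 CPM under shNT and 58.4, 75.3 and 80.1 under shADAR1 in MDAMB231. That is 65.9% of control, a log2 fold change of -0.60 (SE 0.0937), which was -0.48 without shADAR1 replicate 1, the lowest of the 3. In BT549 it had 83.7, 84.2 and 93.8 CPM against 68.9, 73.6 and 78.1 (-0.25, SE 0.0928), and in MDAMB468 123.0, 128.5 and 136.7 CPM against 118.8, 114.7 and 117.3 (-0.15, SE 0.0927). The arms were apart in these 3 lines. HCC1806 had 123.6, 122.9 and 134.6 CPM against 120.5, 122.5 and 127.1, which overlap (-0.04, SE 0.0927).

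MAP3K7 (ENSG00000135341, chromosome 6, 90513573 to 90587045, minus strand) had log2 fold changes of -0.01, -0.00, -0.10 and -0.06 in BT549, HCC1806, MDAMB231 and MDAMB468, with an SE of 0.112 to 0.113. CYLD (ENSG00000083799, chromosome 16, 50742050 to 50801935, plus strand) had positive values in all 4 lines, 0.05, 0.30, 0.21 and 0.16, with an SE of 0.125 to 0.126 and overlapping arms. In HCC1806 it had 25.9, 33.5 and 27.6 CPM under shNT and 38.4, 37.5 and 31.2 under shADAR1. The mean over lines was 0.18 (SE 0.0628).

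**Figure D3:**
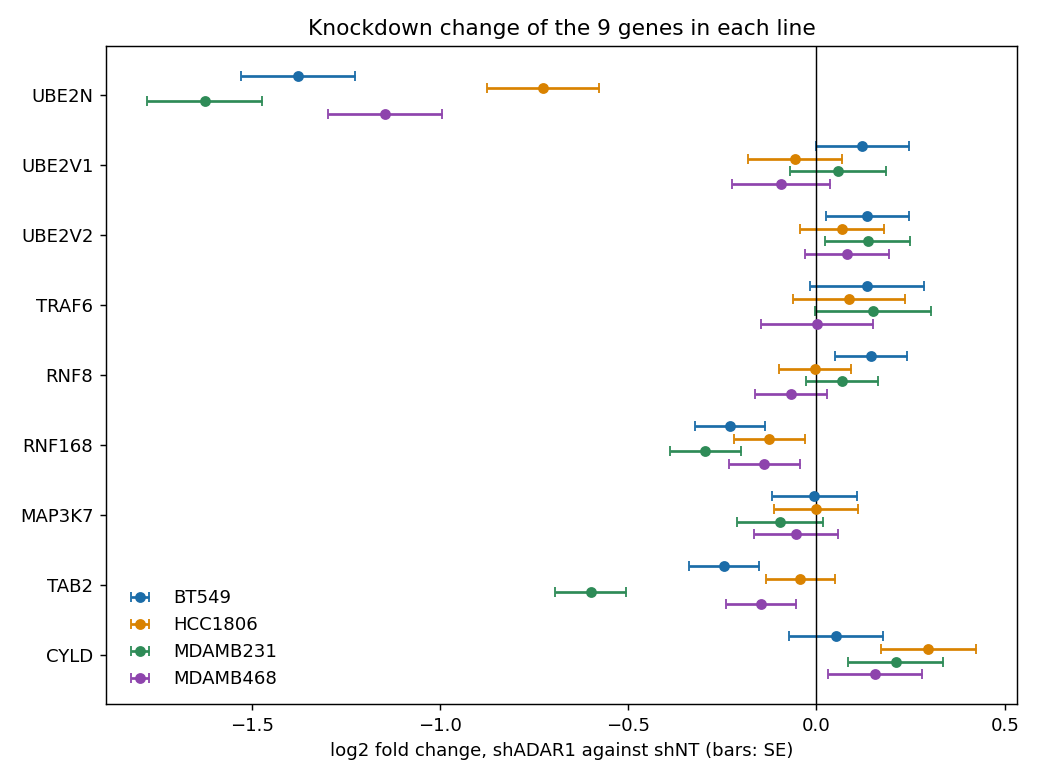
Log2 fold change of shADAR1 against shNT (horizontal axis) for the 9 genes in the 4 lines; points are edgeR estimates from 3 libraries per arm and bars are 1 SE. UBE2N lies between -1.62 and -0.73, TAB2 reaches -0.60 in MDAMB231, and CYLD and UBE2V2 are above 0 in all lines.

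Calls were counted in the edgeR quasi-likelihood fit at a Benjamini-Hochberg adjusted p of 0.05 over 21352 genes. Of the 8 genes beside UBE2N, 0 were called in BT549, where 0.473% of all genes were, 0 in HCC1806 (0.0468% of all genes) and 0 in MDAMB468 (0.0375%). In MDAMB231, 1 of the 8 was called, TAB2, beside 2.01% of all genes, and the fit on the 6 MDAMB231 libraries alone lost that call. In the mean over lines 2 were called, TAB2 and RNF168, both lower, beside 2.96% of all genes, and RNF168 lost that call without the filter on low counts. With the replicate number as a block, TAB2 and RNF168 were called in BT549 (5.14% of all genes) and MDAMB231 (11.4%), 0 of the 8 in HCC1806 (2.10%) and MDAMB468 (1.66%), and 3 in the mean (13.2%), which added CYLD as higher. Because the genes were put together with this contrast already known, nothing is read from the counts. The median log2 fold change of the 8 genes was 0.09, -0.00, 0.06 and -0.06 in the 4 lines, beside 0.01, 0.00, 0 and 0.01 over all genes tested.

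Whether the change differed between lines was tested jointly for the 8 genes, and 0 of them passed, beside 0.0234% of all genes (edgeR, adjusted p under 0.05). TAB2 had the smallest p, with an F of 6.73 and an adjusted p of 0.464 in edgeR, the only 1 of the 8 with an unadjusted p under 0.05. With the replicate block the edgeR adjusted p of TAB2 was 0.00587 (F 12.5), and DESeq2 also called 1 of the 8 genes. The replicate numbers were read as pairs in 3 lines and not in MDAMB468, yet the blocked fit covers all 4 lines, so its values for MDAMB468 and for differences between lines rest in part on numbers that were not read as pairs. A difference between lines for TAB2 therefore depends on the fit.

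The level of the genes under the control hairpin is a different contrast, and there the 4 lines differed in all 9 genes by the joint edgeR test (adjusted p from 3.65e-11 for UBE2V2 to 3.71e-05 for CYLD). Lines of different origin differ in most genes: 85.9% of all genes tested passed the same test. UBE2N was highest in MDAMB231, at 90.1 ± 10.8 CPM (SD, n = 3), against 52.2 ± 7.59 in HCC1806, 47.5 ± 4.46 in BT549 and 38.5 ± 1.55 in MDAMB468. MDAMB231 exceeded BT549 by 0.92 on the log2 scale (SE 0.149, edgeR adjusted p 1.18e-05), HCC1806 by 0.79 (SE 0.149, edgeR adjusted p 7.91e-05) and MDAMB468 by 1.23 (SE 0.150, edgeR adjusted p 1.96e-07). HCC1806 and BT549 were not told apart (edgeR adjusted p 0.445), nor were BT549 and MDAMB468 (edgeR adjusted p 0.0798). HCC1806 was above MDAMB468 by an edgeR adjusted p of 0.0132, which was lost without HCC1806 shNT replicate 1 and without MDAMB468 shNT replicate 2 or replicate 3. NUDT4, whose exons overlap those of UBE2N, also varied between lines under shNT. It averaged 85.7 CPM in HCC1806, 77.5 in MDAMB231, 37.3 in MDAMB468 and 35.55 in BT549. Whether its reads bear on the order of the lines in UBE2N was not tested.

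The partners followed other orders. UBE2V2 was highest in BT549, at 88.9 ± 7.42 CPM against 34.3 to 40.9 CPM in the other 3 lines, and BT549 exceeded each of them by an edgeR adjusted p of 1.01e-08 or less. The 3 lower lines were not told apart in UBE2V2. UBE2V1 was lowest in MDAMB468, at 5.34 ± 0.880 CPM against 11.5 to 13.7 CPM elsewhere, with edgeR adjusted p-values of 1.29e-07 or less, and its other 3 lines were not told apart.

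TRAF6 split the lines most, by 3.30 times between the highest and lowest mean. It stood at 52.2 ± 13.0 CPM in HCC1806 and 48.9 ± 4.53 in MDAMB468, the lines with high EPCAM and KRT5, and at 19.9 ± 2.85 in MDAMB231 and 15.9 ± 0.594 in BT549, the lines with high VIM. Each of the 4 comparisons across that divide passed (edgeR adjusted p of 1.45e-07 or less), and neither comparison within it did (edgeR adjusted p 0.607 and 0.0638). RNF8 was highest in MDAMB231 (45.9 ± 4.44 CPM) and lowest in BT549 (22.7 ± 1.38), with HCC1806 and MDAMB468 between them and not told apart. RNF168 was highest in HCC1806 (117.1 ± 10.6 CPM), not told apart there from MDAMB231 (102.0 ± 3.56, edgeR adjusted p 0.0723), and lower in BT549 and MDAMB468.

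MAP3K7 was highest in MDAMB468, at 99.6 ± 9.83 CPM against 48.0 to 55.1 CPM in the other 3 lines, which were not told apart. TAB2 varied least, from 87.2 ± 5.69 CPM in BT549 to 129.4 ± 6.87 in MDAMB468, and BT549 was below each other line (edgeR adjusted p of 0.00676 or less). CYLD was lowest in HCC1806, at 28.97 ± 3.99 CPM against 46.6 to 47.5 CPM elsewhere (edgeR adjusted p of 7.32e-05 or less). Across the 6 pairs of lines the number of the 9 genes that passed was near the share of all genes. It was 6 for HCC1806 against BT549 (63.5% of all genes), 5 for MDAMB231 against BT549 (56.5%) and 6 for MDAMB468 against BT549 (61.0%). It was 5 for MDAMB231 against HCC1806 (59.0%), 5 for MDAMB468 against HCC1806 (62.9%) and 7 for MDAMB468 against MDAMB231 (61.8%).

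**Figure D4:**
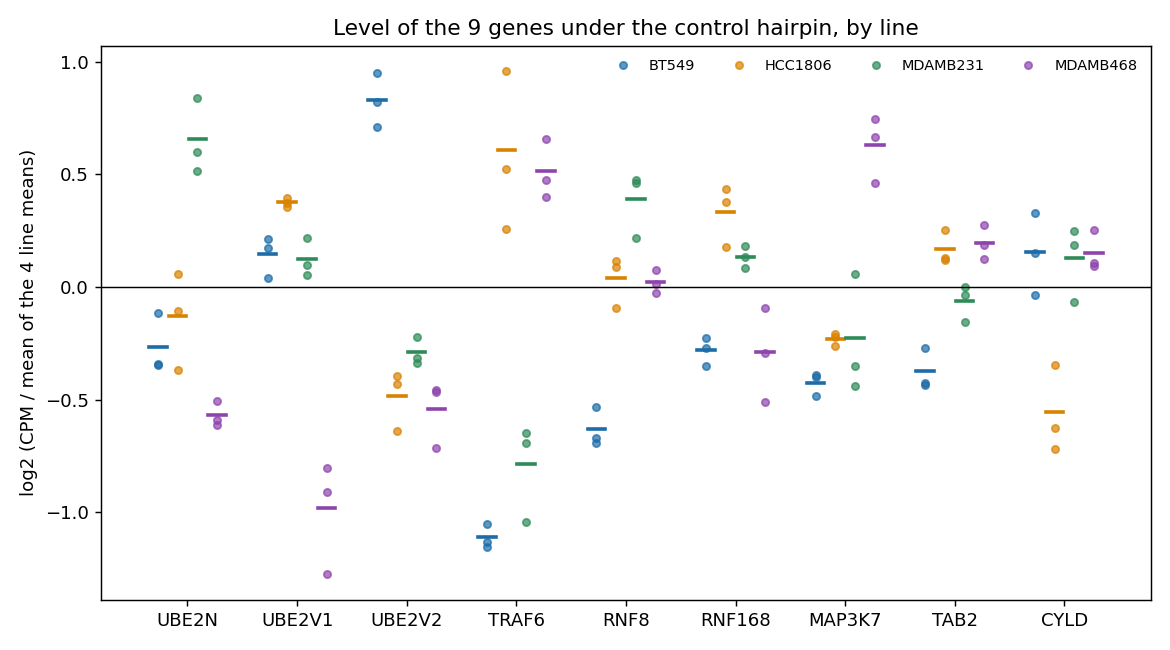
Level of the 9 genes in the 12 shNT libraries, as log2 of CPM over the mean of the 4 line means (vertical axis); points are libraries and short lines are group means. UBE2N stands out in MDAMB231, UBE2V2 in BT549 and MAP3K7 in MDAMB468, and TRAF6 is above 0 in HCC1806 and MDAMB468 and below it in the other lines.

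The wider pathway was read from 6 lists of 107 genes that leave out the 9, of which 102 were tested. In the same edgeR fit, 6 of the 102 (5.88%) were called in MDAMB231, where 2.01% of all genes were, and 0 in each of BT549, HCC1806 and MDAMB468. In the mean over lines 4 (3.92%) were called, near the 2.96% of all genes. In BT549, HCC1806 and MDAMB468, 7, 9 and 4 of the 102 had an unadjusted edgeR p under 0.05. Over all 21352 genes the numbers were 1370, 929 and 803. DESeq2 called 4, 2 and 0 of the 102, and its share over all genes is not given here. With the replicate block edgeR called 8 in BT549 (5.14% of all genes), 14 in HCC1806 (2.10%), 28 in MDAMB231 (11.4%), 1 in MDAMB468 (1.66%) and 37 in the mean (13.2%). The lists were chosen with earlier results of these data known.

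Of 14 adaptors and kinases beside TAK1 and IKK, 5 were called in MDAMB231 (35.7%, against 2.01% of all genes), 4 lower and 1 higher. BCL10, which links antigen-receptor CARD proteins to MALT1 and NF-kB, went from 39.6 ± 3.65 to 24.8 ± 2.22 CPM there (log2 fold change -0.67, SE 0.109, edgeR adjusted p 0.000694). Its libraries in MDAMB231 were at 43.7, 36.8 and 38.3 CPM under shNT and 22.2, 25.6 and 26.4 under shADAR1, with no overlap. BCL10 also fell in the mean over lines (-0.41, SE 0.0538, edgeR adjusted p 3.79e-05), with -0.46 in BT549, -0.22 in HCC1806 and -0.28 in MDAMB468, and it passed in that mean whichever of 24 libraries was left out. MAVS, the mitochondrial adaptor of RNA sensors, fell in MDAMB231 from 320.1 ± 27.1 to 252.1 ± 38.8 CPM (-0.34, edgeR adjusted p 0.0484) and in the mean (-0.19, SE 0.0453, edgeR adjusted p 0.0200). The MAVS call in the mean was lost without BT549 shADAR1 replicate 2 (edgeR adjusted p 0.0531), and that in MDAMB231 in 4 of 6 fits that leave out a library.

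RIPK1, a kinase of the TNF receptor complex that carries lysine-63 chains, was at 65.8 ± 1.85 CPM under shNT and 47.8 ± 2.91 under shADAR1 in MDAMB231 (-0.46, SE 0.120, edgeR adjusted p 0.0457), a call that none of the 6 fits leaving out a library kept. TAB3, the near relative of TAB2, had -0.44 (SE 0.106, edgeR adjusted p 0.0258) in that line, falling from 41.2 ± 4.31 to 30.3 ± 1.83 CPM, and is outside the rule for naming genes, chosen after its values were seen. IRAK1, a kinase that binds TRAF6 after Toll-like receptor activation, rose in MDAMB231 from 236.2 ± 3.49 to 319.6 ± 36.3 CPM (0.44, SE 0.0928, edgeR adjusted p 0.0102), and lost the call without shADAR1 replicate 1. Its values in the other 3 lines lay between -0.03 and 0.11. Without shADAR1 replicate 1 the count of called genes over the 6 lists in MDAMB231 was 1 in place of 6, and without shNT replicate 2 or shNT replicate 3 it was 3.

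Other E2 enzymes were spread on both sides of 0. Of 31 tested, 23 had a log2 fold change above 0 in the mean over lines and 8 below, with a range from -0.27 to 0.21 and a median of 0.05 (all genes 0.02). In that mean 2 (6.45%) were called beside 2.96% of all genes, and with the replicate block 13 (41.9%) beside 13.2%, of which 11 were higher and 2 lower. UBE2L3, the E2 of the ligases parkin and HOIP, fell by 0.27 on the log2 scale (SE 0.0567, edgeR adjusted p 0.00659) and in MDAMB231 from 95.0 ± 4.67 to 66.5 ± 8.88 CPM (-0.51, edgeR adjusted p 0.0145). The call in that line was lost without shADAR1 replicate 1 and without shNT replicate 2. UBE2E3 rose by 0.18 (SE 0.0429, edgeR adjusted p 0.0206) in the mean, with 0.14, 0.09, 0.22 and 0.26 in BT549, HCC1806, MDAMB231 and MDAMB468. It passed in no single line (edgeR adjusted p 0.262 or more), and the mean did not pass without the filter on low counts (edgeR adjusted p 0.0689).

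Of 16 members of the list with the E1 enzyme and further ligases, 10 deubiquitinases and 13 DNA break factors, 0 were called in any line or in the mean by edgeR. In the mean the unadjusted edgeR p was under 0.05 for 4, 2 and 1 of them, beside 2741 of all 21352 genes. DESeq2 called 1, 1 and 0 in the mean, and its share over all genes is not given here. With the replicate block edgeR called 5, 4 and 2 in the mean, where it called 13.2% of all genes.

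The NF-kB target genes, which MAP3K7 and IKK act upon at the end of the pathway, had their highest values in HCC1806. All 18 tested had a log2 fold change above 0 in that line, from 0.08 to 1.66, with a median of 0.51 where all genes had 0.00. None passed the edgeR test there, where 0.0468% of all genes did. Of the 18, 4 had an unadjusted p under 0.05 in edgeR, beside 929 of all 21352 genes. DESeq2 called 1, and its share over all genes is not given here. The fit with the replicate block called 8, all higher, beside 2.10% of all genes. The mean log2 CPM over the 18 genes was 4.29, 4.39 and 3.67 in shNT replicates 1, 2 and 3 and 5.14, 4.80 and 4.23 in the shADAR1 libraries with the same numbers, so each shADAR1 library was above the shNT library of its number while the arms overlapped. Without shADAR1 replicate 1 the median was 0.31, with 17 of 18 genes above 0, and without shADAR1 replicate 3 it was 0.71. The medians of the same 18 genes in BT549, MDAMB231 and MDAMB468 were 0.03, -0.02 and -0.00.

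Genes of that group are given with their libraries in HCC1806, and they were chosen after their values were seen. TRAF1, an adaptor of TNF receptors, had 2.24, 4.20 and 1.06 CPM under shNT and 10.6, 9.96 and 3.51 under shADAR1 (1.66, SE 0.337, edgeR adjusted p 0.107, or 8.74e-07 with the replicate block). IRF1, an interferon-response transcription factor, had 34.9, 22.6 and 19.4 CPM against 52.5, 31.4 and 30.7 (0.58, SE 0.289, edgeR adjusted p 1, or 7.03e-05 with the replicate block). The arms of both genes overlapped, and each shADAR1 library was above its numbered partner.

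From the ligase list, BIRC3, which places lysine-63 chains on RIPK1 and is itself an NF-kB target, had 18.8, 18.5 and 9.21 CPM against 55.2, 32.7 and 23.2 in HCC1806 (1.26, SE 0.280, edgeR adjusted p 0.193, or 0.000158 with the replicate block). Its arms did not overlap. TNFAIP3 (A20), a restraint of the pathway from the deubiquitinase list and also an NF-kB target, had 242.2, 254.7 and 83.4 CPM against 344.5, 311.5 and 107.7 (0.40, SE 0.403, edgeR adjusted p 1, or 0.0121 with the replicate block). In both arms replicate 3 was the lowest. BIRC3 and TNFAIP3 were picked with their HCC1806 values already known, and both are outside the rule for naming genes. Their lists did not rise in that line. Of the 16 genes of the ligase list, 8 had a log2 fold change above 0 and 8 below, with a median of -0.007. Of the 10 deubiquitinases, 5 were above 0 and 5 below, with a median of -0.009. Of the 102 genes, 0 passed the edgeR test of a difference between lines, beside 0.0234% of all genes. In that test 10 had an unadjusted p under 0.05, beside 947 of all 21352 genes. DESeq2 called 1, and 14 passed with the replicate block, where 4.69% of all genes did.

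**Figure D5:**
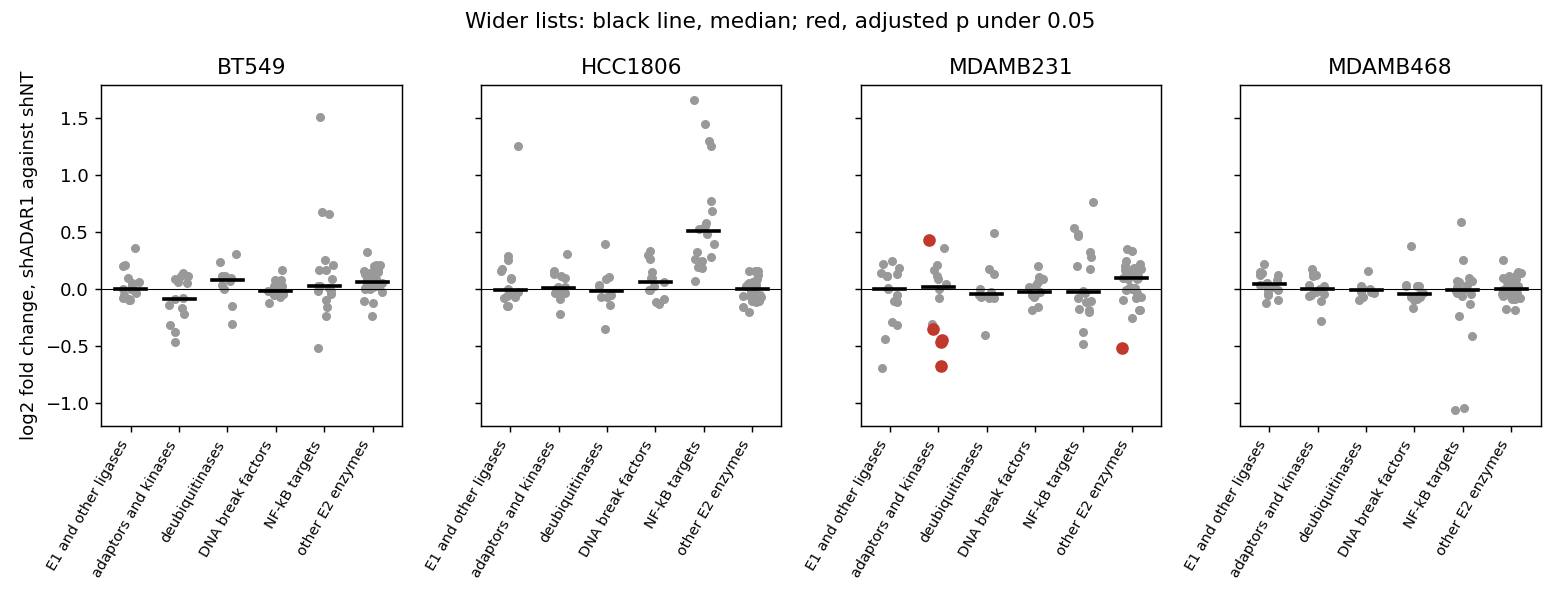
Log2 fold change of shADAR1 against shNT (vertical axis) for the 102 tested genes of the 6 wider lists in each line; points are genes, black lines list medians, and red points passed an edgeR adjusted p of 0.05. The 6 red points are all in MDAMB231, and the NF-kB targets in HCC1806 lie above 0 with a median of 0.51.

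The genes whose pattern over the 24 libraries was most like that of UBE2N were ranked by the Pearson correlation of log2 CPM after the mean of each line was subtracted, among 10999 genes. The 5 highest were ANTXR1 (r 0.971), MLF2 (0.969), AIDA (0.967), DESI2 (0.967) and MLX (0.966), and the sixth stood at 0.964. All points share the libraries and the hairpin contrast, so these values are a description. The sequence ATCTTCA has 2, 1, 1, 3 and 2 copies in the 3′ UTRs of these 5 genes, in the order given. Their UTRs are 577 to 3842 bases long, and 13.6% of all genes with a 3′ UTR hold at least 1 copy. The share is 46.6% among UTRs at least as long as that of UBE2N. Both the sequence and the 5 genes were picked with these same data, so nothing is read from the copies. Of the list genes named above as lower under shADAR1, BCL10, MAVS, RIPK1 and TAB3 hold 0 copies and UBE2L3 holds 1. IRAK1 and UBE2E3, named as higher, hold 0. Loss of ADAR1 and any other effect of the hairpin cannot be told apart in this design, and neither was tested. With Spearman's rho, 2 of the 5 stayed among the first 5, and with RLE scaling all 5 did. ADAR itself was at rank 9 (r 0.957).

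The differences of MLF2 in log2 CPM were -0.67, -0.34, -0.77 and -0.43 in BT549, HCC1806, MDAMB231 and MDAMB468, and those of AIDA -0.74, -0.54, -1.39 and -0.84. Those of MLX were -1.09, -0.60, -1.15 and -0.58. All 5 genes, like UBE2N, had their largest difference in MDAMB231, and 4 of the 5 had their smallest difference in HCC1806, with MLX as the exception. The 5 were picked for their likeness to UBE2N, so this shared order follows in part from the choice. Among the 9 genes TAB2 (r 0.771, rank 226) and RNF168 (r 0.735, rank 281) were the most like UBE2N, and CYLD was the least like it (r -0.55). NUDT4 had an r of 0.27.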

How the data were processed

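RNA was sequenced from 24 libraries, 3 for each of 8 groups of line and hairpin, from 1 µg of total RNA after ribosomal RNA depletion, as the labels' protocols state. Read counts per gene were deposited by the authors, who used STAR and featureCounts per the submitters' processing notes; the genome build, the annotation and the use of strand are not given in the sources used here. The deposited CPM equal counts scaled to the library total, and the deposited RPKM divide them by gene length, per the file headers. Of the identifiers, 34265 were in GENCODE 29 and 31357 had the same start and end.

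The counts were fitted with edgeR 4.0.16 in R 4.3.3 (quasi-likelihood F test, two-sided) in a single model with 1 coefficient per group, after filterByExpr (21352 genes) and TMM scaling (factors 0.924 to 1.12). P-values were adjusted by Benjamini-Hochberg over the whole table, with a threshold of 0.05, and each SE was derived from the fold change and F. The fit without a replicate block was run on simulated data, and its outcome is not given here. Those data held no deviations shared by libraries of the same replicate number, so they do not bear on the block. No library repeats another of its group: replicate counts differed beyond sampling noise in each group (lowest chi-square over its degrees of freedom 10.9). Libraries of different groups were not compared in this way. The members, the lists and the 7-base sequence were chosen with earlier results of these data known.

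Named were the 9 genes, ADAR, at most 3 called genes per wider list and direction by the smallest p in the mean over lines, and the 5 genes most like UBE2N among those whose mean log2 CPM reached 2 (prior count 2). Replicate numbers are shared by the arms of a line. Deviations of same-numbered libraries correlated at 0.139, 0.158 and 0.25 in BT549, 0.242, 0.332 and 0.443 in HCC1806, 0.204, 0.348 and 0.149 in MDAMB231, and 0.165, 0.166 and 0.0651 in MDAMB468. The numbers were read as pairs in the first 3 lines. MDAMB468 was set apart by replicate 3 (0.0651) alone, since its 0.165 and 0.166 were above the 0.139 and 0.158 of BT549. No cutoff is stated for this reading, and the main fit holds no replicate block in any line. The alternatives were no filter, a minimum of 10 counts in every library, upper-quartile and RLE scaling, the replicate block, the libraries of a comparison alone, leaving out each library, and DESeq2 1.42.0. SOD2 and UBE2NL were not found in the files, and CCL2, UBE2QL1 and UBE2U did not pass the filter.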

Additional observations from a re-analysis of the deposited data

How the results depend on the processing

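The log2 fold change of UBE2N moved by less than the spread between replicates under all 82 alternatives. Leaving out a library gave -1.42 to -1.29 in BT549, -0.83 to -0.62 in HCC1806, -1.81 to -1.51 in MDAMB231 and -1.26 to -1.01 in MDAMB468. No result among those recomputed reversed its direction past a threshold. Among recomputed levels between lines under shNT, 625 kept their side of the threshold, 12 lost the call and 11 gained it. The replicate block could not be fitted to that comparison, whose groups are different lines.

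Counts of called genes over the wider lists moved most with the replicate block, to 8 in BT549, 14 in HCC1806, 28 in MDAMB231, 1 in MDAMB468 and 37 in the mean, from 0, 0, 6, 0 and 4, and the cause was not tested. DESeq2 gave 4 in BT549, 2 in HCC1806 and 8 in the mean. In BT549 RLE scaling, upper-quartile scaling and at least 10 counts in every library gave 1 each, and its own libraries alone gave 2. HCC1806 had 2 without the filter. MDAMB231 had 1 on its own libraries, a fit with fewer samples, and the mean had 7 with at least 10 counts in every library. Leaving out a library gave 0 to 2 in HCC1806, 1 to 4 in MDAMB231 and 3 to 7 in the mean (7 without HCC1806 shADAR1 replicate 3). Over all genes it gave 4 to 15 calls in HCC1806, 202 to 526 in MDAMB231 and 500 to 706 in the mean. For DESeq2, the scalings, the filters and the own-library fits, the share over all genes is not given here. Whether those settings call more genes everywhere is therefore not shown, and nothing is read from their counts. The number of the 8 genes beside UBE2N that differed between lines went from 0 to 1 with the replicate block and with DESeq2. Over all genes the block raised the calls from 101, 10, 429, 8 and 632 to 1098, 448, 2434, 354 and 2820 in the same order. With 3 libraries per group and 10370645 counts in the shallowest, differences of the size seen in UBE2V2 or TRAF6 were not detectable. The medians of the NF-kB targets under each alternative were computed after seeing the data, and none of 82 moved beyond the spread between replicates. That is a loose check, because the spread is wide. In HCC1806 the mean log2 CPM of the list had an SD of 0.391 under shNT and 0.459 under shADAR1, beside a median change of 0.51. Leaving out a library gave medians of 0.31 to 0.71 in HCC1806 and -0.08 to 0.19 in MDAMB231.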
